A study of Mus musculus with 6 samples.

Results

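A set of 10 genes of fat cell formation and fatty acid uptake was followed across the 6 libraries of the series: the transcription factors Pparg, Cebpa and Cebpd, the uptake genes Lpl and Cd36, the fatty acid carriers Fabp4 and Fabp5, the lipid droplet coats Plin1 and Plin2, and the adipokine Adipoq. They were chosen by symbol from a deposited table of 54532 genes, and all 10 were found, each on 1 row. The libraries came from cells grown out of collagenase-digested chips of mouse femur and tibia and sorted for reporter fluorescence. The mutant, named Zeb1Prx1, carried Prx1-Cre, ROSA-YFP and Zeb1 fl/fl alleles (3 libraries). WT carried Prx1-Cre, ROSA-YFP and Zeb1 wt/wt alleles (3 libraries). All cells were untreated, and both genotypes carried the Cre and the reporter. Prx1-Cre acts in limb bud mesenchyme and its descendants, so Zeb1 is removed in that lineage and not in blood-derived cells. Age, sex and pooling of mice are not given in the labels, and neither is whether replicates came from separate mice. The p-values therefore reflect library-to-library spread, part of which may be technical.

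Fat cells form from mesenchymal stromal cells. Cebpd and Cebpb act early and induce Pparg and Cebpa, which maintain each other and switch on genes of lipid uptake and storage. Lipoprotein lipase (Lpl) frees fatty acids from circulating lipoproteins, Cd36 helps them across the plasma membrane, Fabp proteins carry them in the cytosol, and perilipins coat the droplets in which they are stored. In bone marrow, stromal cells of the Prx1 lineage give rise to both osteoblasts and adipocytes. Zeb1, a zinc-finger factor that binds E-boxes of the form CACCTG, is also known as a regulator of fat cell differentiation in cultured mouse preadipocytes. Macrophages use several of the same genes, among them Cd36, Lpl, Fabp4, Fabp5, Plin2 and Pparg.

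Values are FPKM as the authors deposited them, that is fragments scaled by gene length and by library depth. A log2 difference is the Zeb1Prx1 mean of log2(FPKM + 1) less the WT mean, and SE is its standard error. The libraries held 14724357 to 18354894 assigned fragments. Zeb1 itself had 1.92, 1.59 and 2.84 FPKM in Zeb1Prx1 libraries, against 6.61, 10.3 and 7.12 in WT libraries, which did not overlap (log2 difference -1.53, limma adjusted p = 0.229). Zeb1Prx1 replicate 2 had an FPKM sum of 372566, where the other 5 libraries had 278987 to 312038, and Zeb1Prx1 replicate 3 had the highest summed level of stromal and of chondrocyte markers. Xist had 0.00309 to 12.6 FPKM in Zeb1Prx1 and 26.8 to 40.4 in WT, and the Y-linked Ddx3y had 14.6 to 21.9 FPKM in Zeb1Prx1 and 4.45 to 8.19 in WT, so that sex composition and genotype cannot be told apart.

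The lipid uptake genes Lpl and Cd36 and the factor Cebpa had their highest Zeb1Prx1 library below their lowest WT library, while Cebpd had a higher mean in Zeb1Prx1 with overlapping libraries. Fabp4, Fabp5, Plin2 and Pparg overlapped between genotypes. The mature fat cell genes Plin1 and Adipoq were at or close to 0 fragments in both genotypes. The filter on low values (at least 1 FPKM in at least 3 libraries) kept 12534 genes, 8 members among them. By limma, with p adjusted over these genes by Benjamini-Hochberg and a threshold of 0.05, 0 of the 8 members and 0% of all tested genes were called.

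Among the transcription factors, Cebpd, an early and stress-responsive C/EBP factor, had 39.9, 71.3 and 92.5 FPKM in Zeb1Prx1 libraries, against 22.9, 50.3 and 33.7 FPKM in WT libraries. Zeb1Prx1 replicates 2 and 3 were the highest of all 6, and Zeb1Prx1 replicate 1 lay below WT replicate 2. The means were 67.9 ± 26.4 and 35.7 ± 13.8 FPKM (SD, n = 3 each), 1.90-fold, with a log2 difference of 0.90 (SE 0.38, 95% interval -0.0073 to 1.81) that did not pass (limma adjusted p = 0.33). Cebpd shares its locus with Spidr, a DNA repair gene on the other strand whose annotated span reaches into it. Spidr had 2.76 to 4.11 FPKM in Zeb1Prx1 and 3.19 to 4.27 in WT, and use of strand in counting is not given in the sources used here.

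Cebpa, which sustains the fat cell state with Pparg and is also used by myeloid cells, had 26.8, 25.5 and 26.6 FPKM in Zeb1Prx1 libraries, against 32.02, 43.5 and 28.5 FPKM in WT libraries. The 3 Zeb1Prx1 libraries were nearly equal and all lay under the lowest WT library, WT replicate 3, by a small margin. The means were 26.3 ± 0.713 and 34.7 ± 7.84 FPKM, a log2 difference of -0.36 (SE 0.18, 95% interval -0.80 to 0.072; limma adjusted p = 0.375), and -0.19 without WT replicate 2. The spread thus lay mainly in WT, where the coefficient of variation was 22.6%, against 2.71% in Zeb1Prx1.

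Pparg, the nuclear receptor required for fat cell formation, was expressed at a low level. It had 3.73, 1.47 and 1.09 FPKM in Zeb1Prx1 libraries, from 177, 78 and 49 fragments, against 3.11, 1.76 and 3.09 FPKM in WT libraries, from 168, 80 and 140 fragments. The highest and the 2 lowest of all libraries were Zeb1Prx1 libraries, so the genotypes overlapped fully. The Zeb1Prx1 mean was 2.09 ± 1.43 FPKM, or 1.28 without Zeb1Prx1 replicate 1, and the WT mean 2.65 ± 0.771. The log2 difference was -0.31 (SE 0.33, 95% interval -1.10 to 0.48; limma adjusted p = 0.645). It was -0.66 without Zeb1Prx1 replicate 1 and -0.073 without Zeb1Prx1 replicate 3. Pparg has several promoters, of which the downstream one gives the fat-selective isoform, and gene-level FPKM does not separate them.

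Promoters are shown for Cebpa, the factor whose genotypes did not overlap, and for the second of 3 RefSeq starts of Pparg, the single member promoter with the Zeb1-type E-box. RefSeq (GRCm38.p6, the assembly of mm10) gave 8 promoters for 6 of the 10 genes. Cebpd, Lpl, Fabp4 and Fabp5 had no promoter entry, so theirs were not searched for any motif. Each run is the 250 bases before the start, 5′ to 3′ on the gene's strand. Capitals mark CAGGTG or CACCTG (the E-box bound by Zeb1), CCAAT or ATTGG, and GGGCGG or CCGCCC, each pair being 1 motif read on both strands. None of the marked matches overlap each other.
Cebpa, chr7:35119043-35119292, plus strand: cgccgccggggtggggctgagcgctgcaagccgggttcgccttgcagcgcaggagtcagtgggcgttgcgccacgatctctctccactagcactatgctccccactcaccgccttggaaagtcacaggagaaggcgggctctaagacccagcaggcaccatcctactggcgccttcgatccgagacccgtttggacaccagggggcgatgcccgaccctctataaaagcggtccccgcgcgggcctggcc
Pparg second start, chr6:115362099-115362348, plus strand: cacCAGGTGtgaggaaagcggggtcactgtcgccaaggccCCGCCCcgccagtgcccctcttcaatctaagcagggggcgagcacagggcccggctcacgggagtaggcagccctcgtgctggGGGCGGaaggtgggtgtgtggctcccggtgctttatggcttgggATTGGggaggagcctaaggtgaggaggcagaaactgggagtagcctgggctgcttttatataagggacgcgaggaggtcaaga
The Cebpa window held none of the 3 motifs. The Pparg window held the E-box 247 bases before the start, CCAAT 83 bases before it and the GC box at 210 and 127 bases. Of all 32851 RefSeq promoters of this length, 17.2% held the E-box, 33.85% the CCAAT motif and 32.7% the GC box. The E-box was thus in 1 of 8 member promoters, and a match is a description of letters and not of binding.

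**Figure D1:**
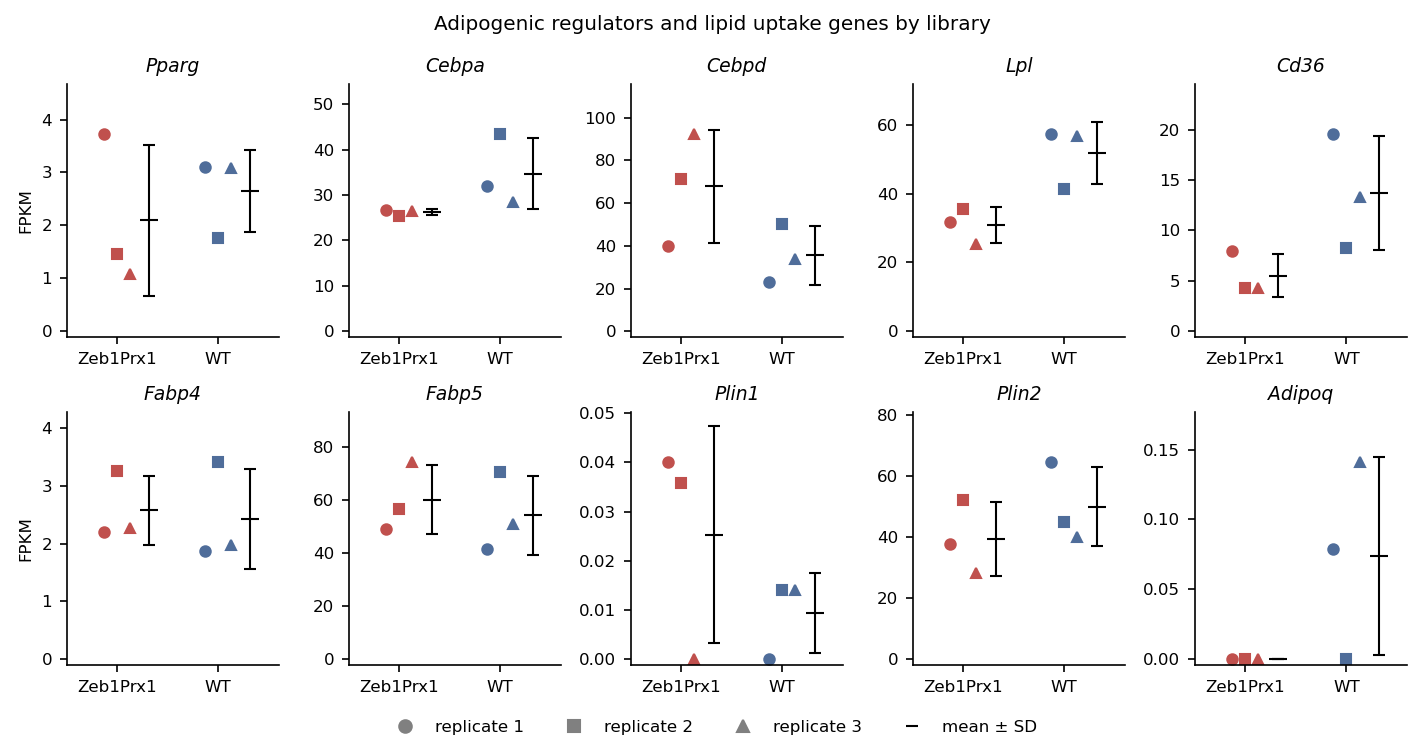
FPKM of each of the 10 genes (y axis, own scale per panel) in the 3 Zeb1Prx1 and 3 WT libraries, with marker shape giving the replicate and the bar the mean ± SD. Lpl, Cd36 and Cebpa show no overlap between genotypes, Cebpd has its highest values in Zeb1Prx1 replicates 2 and 3, and Plin1 and Adipoq reach at most 0.141 FPKM.

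Both uptake genes had lower values in Zeb1Prx1. Lpl, the secreted lipase that frees fatty acids from lipoproteins, had 31.7, 35.5 and 25.3 FPKM in Zeb1Prx1 libraries, against 57.3, 41.5 and 56.7 FPKM in WT libraries. The groups did not overlap, and WT replicate 2 was the WT library nearest to the Zeb1Prx1 range. The means were 30.8 ± 5.13 and 51.8 ± 8.997 FPKM, 0.5945-fold, with a log2 difference of -0.73 (SE 0.20, 95% interval -1.21 to -0.25). It did not pass over all genes (limma adjusted p = 0.273, unadjusted p = 0.00854). With library weights it had a log2 difference of -0.89 and an adjusted p of 0.0498, while its adjusted p over all alternatives lay between 0.0498 and 0.543. Those weights were 2.82 for Zeb1Prx1 replicate 3, the library lowest in Lpl, and 0.655 and 0.226 for Zeb1Prx1 replicates 1 and 2.

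Cd36, the scavenger receptor and fatty acid translocase, had 7.96, 4.25 and 4.32 FPKM in Zeb1Prx1 libraries, against 19.6, 8.22 and 13.4 FPKM in WT libraries. Its highest Zeb1Prx1 value, in replicate 1, lay just under its lowest WT value, in replicate 2, and WT replicate 1 stood highest. The means were 5.51 ± 2.12 and 13.7 ± 5.69 FPKM, 0.402-fold, with a log2 difference of -1.15 (SE 0.34, 95% interval -1.95 to -0.35; limma adjusted p = 0.275, unadjusted p = 0.0118). Without WT replicate 1 the WT mean was 10.8 FPKM and the log2 difference -0.87. The RefSeq promoter of Cd36, the member with the largest difference in size, had the CCAAT motif 195 bases before the start and a repeated GC box at 109 and 93 bases, and no E-box of the Zeb1 type, with capitals marking the same motifs.
Cd36, chr5:17835897-17836146, minus strand: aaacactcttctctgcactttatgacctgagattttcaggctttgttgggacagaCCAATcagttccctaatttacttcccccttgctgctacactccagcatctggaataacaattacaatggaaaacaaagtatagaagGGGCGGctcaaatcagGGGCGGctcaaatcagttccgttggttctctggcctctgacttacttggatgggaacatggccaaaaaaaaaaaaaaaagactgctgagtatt
The start of this window lies inside the deposited span of Cd36 (mm10 chromosome 5, 17781690 to 17888801), which also includes starts further upstream.

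Of the 8 tested members, 3 did not overlap between genotypes, all lower in Zeb1Prx1, where 24.4% of all tested genes did not overlap and 11.8% were lower without overlap. At an unadjusted p under 0.05, limma counted Lpl and Cd36, 2 of 8, beside 15.1% of all tested genes (1897), 8.15% higher and 6.98% lower in Zeb1Prx1. The split of those genes, 1022 higher and 875 lower, was 614 and 1270 after scaling to an equal FPKM sum, 931 and 1151 after quantile normalization, and 746 and 1189 with voom on the recovered fragments. Voom also called 0 of 12534 genes, with 1935 at an unadjusted p under 0.05. The log2 difference was below 0 for 5 of the 8 members and for 48.1% of all tested genes. The median was -0.33 over the members and 0.02 over all tested genes. It was -0.11 without Zeb1Prx1 replicate 3 and -0.18 without WT replicate 1. In bulk RNA, fewer cells of a type and less RNA per cell cannot be told apart, which holds for each of these differences.

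**Figure D2:**
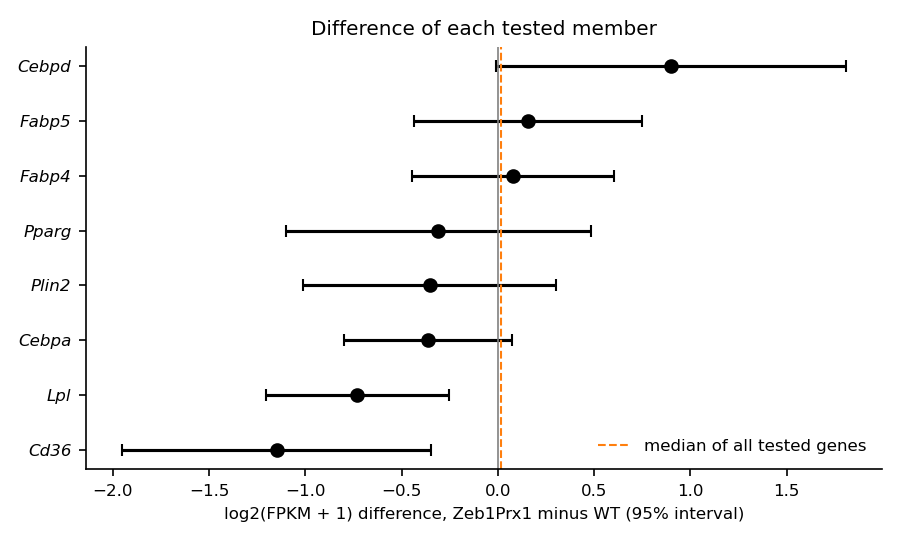
Log2(FPKM + 1) difference, Zeb1Prx1 minus WT (x axis), of the 8 tested members (y axis) with 95% intervals from limma, and the median of all tested genes as a dashed line. The intervals of Cd36 (-1.95 to -0.35) and Lpl (-1.21 to -0.25) lie below 0, and the other 6 include 0.

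The fatty acid carriers gave no detectable difference at this depth and spread. Fabp5, the carrier shared by epidermis, macrophages and fat, had 49.2, 56.7 and 74.7 FPKM in Zeb1Prx1 libraries, against 41.5, 70.5 and 51.0 FPKM in WT libraries. The highest library was Zeb1Prx1 replicate 3, the lowest WT replicate 1, and the genotypes overlapped. Its log2 difference was 0.16 (SE 0.25, 95% interval -0.43 to 0.75; limma adjusted p = 0.762). Fabp4, the carrier typical of fat cells and also present in macrophages, had 2.20, 3.26 and 2.26 FPKM in Zeb1Prx1 libraries, from 155 to 264 fragments, against 1.87, 3.42 and 1.97 FPKM in WT libraries, from 136 to 236 fragments. Replicate 2 was the highest of each genotype. The log2 difference was 0.08 (SE 0.22, 95% interval -0.45 to 0.60; limma adjusted p = 0.868). Both signs depended on the setting: the difference was below 0 for Fabp4 under 5 of 16 alternatives and for Fabp5 under 4 of 17.

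Among the droplet coats, Plin2, which coats droplets in most cell types, had 37.5, 52.1 and 28.0 FPKM in Zeb1Prx1 libraries, against 64.6, 45.02 and 40.1 FPKM in WT libraries. Zeb1Prx1 replicate 2 lay above WT replicates 2 and 3, while Zeb1Prx1 replicates 1 and 3 were the lowest of the 6. The log2 difference was -0.35 (SE 0.28, 95% interval -1.01 to 0.30; limma adjusted p = 0.525), -0.58 without Zeb1Prx1 replicate 2, -0.14 without Zeb1Prx1 replicate 3 and -0.16 without WT replicate 1. Plin1, the coat specific to fat cells, had 3, 3 and 0 fragments in Zeb1Prx1 libraries, against 0, 1 and 1 fragments in WT libraries. Scaled by assigned fragments this was a ratio of 2.86 with a 95% counting interval of 0.512 to 29.0, which includes no difference. Adipoq, which encodes adiponectin, the hormone secreted by fat cells, had 0 fragments in each Zeb1Prx1 library and 5 in total in WT (0.0791, 0 and 0.141 FPKM in WT replicates 1, 2 and 3). The 5 WT fragments were 2, 0 and 3 by replicate, none above 3 in a library, and no fold is given. A count of 3 fragments corresponded to 0.119 to 0.142 FPKM of Adipoq in a library, and to 0.0353 to 0.0423 FPKM of Plin1. These 2 genes were under the filter, and intervals and limits from fragments cover counting error only.

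Measured per kilobase of the deposited gene length, the mean levels in Zeb1Prx1 ran from Cebpd (67.9 FPKM) and Fabp5 (60.2) through Plin2 (39.2), Lpl (30.8) and Cebpa (26.3) to Cd36 (5.51), Fabp4 (2.58) and Pparg (2.09). In WT the order of mean levels was Fabp5 (54.3 FPKM), Lpl (51.8), Plin2 (49.9), Cebpd (35.7), Cebpa (34.7), Cd36 (13.7), Pparg (2.65) and Fabp4 (2.42). In both genotypes, neighbours among the 5 highest members overlapped in their ranges, and so did Pparg and Fabp4. By this length, Cd36 stood apart from its neighbours on both sides.

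The deposited length bears on this order. It equals the union of all annotated exons in GENCODE M21 for each of the 10 genes, and for Fabp4 it was 4489 bases, which is the whole span of the gene (mm10 chromosome 3, 10204088 to 10208576). The principal protein-coding transcript of Fabp4 is 896 bases in 4 exons, so its FPKM is spread over 5.01 times that length. The ratio was 3.61 for Fabp5, 2.55 for Lpl, 1.86 for Plin2, 1.67 for Pparg, 1.65 for Plin1 and between 1 and 1.07 for Cebpa, Cebpd, Cd36 and Adipoq. Per kilobase of principal transcript, Fabp5 would have 218 in Zeb1Prx1 and 196 in WT, Lpl 78.5 and 132, Plin2 73.0 and 92.8, and Fabp4 12.9 and 12.1. Fabp5, Lpl and Plin2 then took the first 3 places in both genotypes, ahead of Cebpd. Cd36 would have 5.82 in Zeb1Prx1 and 14.5 in WT, which places it below Fabp4 in Zeb1Prx1 and above it in WT. The ratio of FPKM means between genotypes is the same with either length, since 1 length applied to all libraries, while a difference of log2(FPKM + 1) depends on the level through the added 1.

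**Figure D3:**
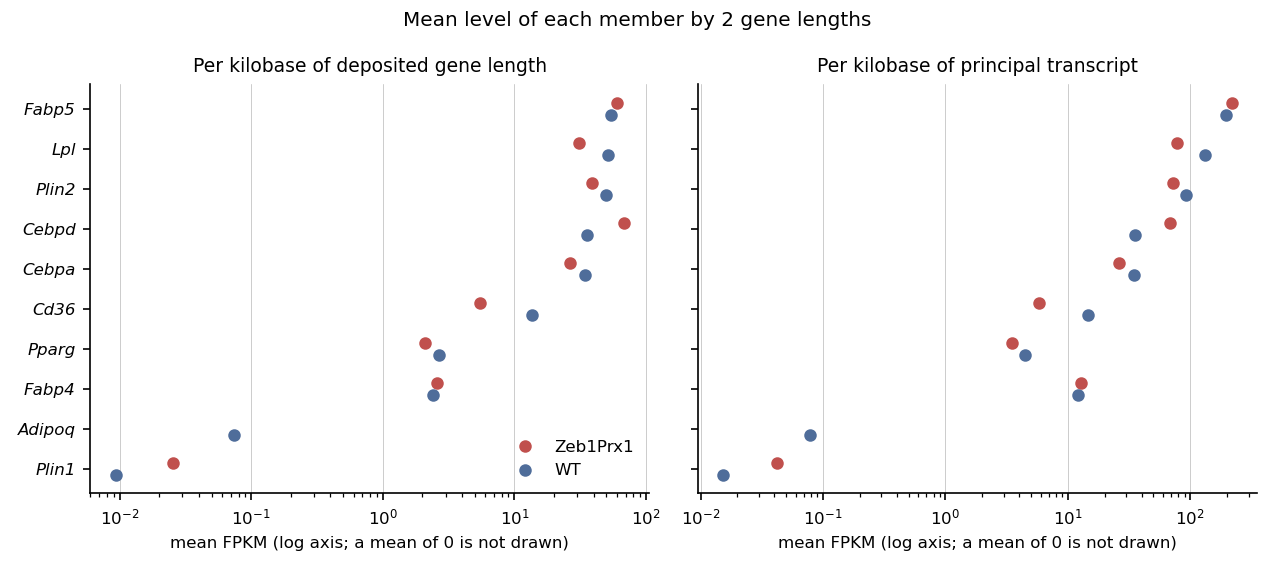
Mean level of each gene (y axis) in Zeb1Prx1 and WT as FPKM on a log x axis, per kilobase of the deposited gene length on the left and of the principal GENCODE M21 transcript on the right. Fabp4 moves from 2.58 and 2.42 to 12.9 and 12.1, and Fabp5 to the highest level of all 10.

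The wider programme was described with 6 lists of genes, in which 0 genes were called in either direction. Among other transcription factors of fat cell formation, 13 of 21 were tested, 6 were above 0 and 7 below, and the median log2 difference was -0.02. Klf15, a Krüppel-like factor of the late programme, had 2.18, 1.99 and 4.43 FPKM in Zeb1Prx1 libraries, against 0.685, 1.14 and 1.40 in WT libraries (log2 difference 0.86, limma adjusted p = 0.278). The glucocorticoid receptor Nr3c1 had 14.7, 9.33 and 13.4 FPKM in Zeb1Prx1 libraries, against 16.0, 16.9 and 19.2 in WT libraries. Both genes separated the genotypes without passing the test, as did Srebf1, which drives lipid synthesis genes (35.2, 35.4 and 41.7 FPKM in Zeb1Prx1, against 27.8, 30.2 and 30.2 in WT). Of the 13 tested, 3 were higher and 2 lower without overlap, beside 12.6% and 11.8% of all tested genes. Cebpb, the early partner of Cebpd, named after its values were seen, had 109, 224 and 140 FPKM in Zeb1Prx1, against 126, 158 and 91.3 in WT, which overlap.

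Genes that restrain fat cell formation had a median log2 difference of 0.36 over 9 tested of 11 listed, with 6 above 0. Trib3, a stress-induced pseudokinase, had 43.2, 45.4 and 29.9 FPKM in Zeb1Prx1 libraries, against 15.4, 13.7 and 15.2 in WT libraries (log2 difference 1.34, limma adjusted p = 0.229). Ddit3, the C/EBP-homologous protein that blocks C/EBP dimers from binding DNA, had 34.8, 56.2 and 25.1 FPKM in Zeb1Prx1 libraries, against 19.8, 19.6 and 19.2 in WT libraries. These 2 of the 9 were higher without overlap, beside 12.6% of all tested genes. The flow-responsive factor Klf2 had 20.6, 32.6 and 36.9 FPKM in Zeb1Prx1, against 17.98, 24.9 and 21.6 in WT, and overlapped. Dlk1, the preadipocyte marker, named after its values were seen, was not tested. It had 0.242, 0.137 and 0.0694 FPKM in Zeb1Prx1, against 0.550, 0.161 and 1.02 in WT, which overlap. These came from 22, 14 and 6 fragments in Zeb1Prx1 and 57, 14 and 89 in WT.

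The list of fatty acid and lipoprotein uptake, which leaves out Lpl and Cd36, had 18 of 19 members tested, 10 below 0 and a median of -0.17. Lipa, the lysosomal acid lipase, had 169, 141 and 120 FPKM in Zeb1Prx1 libraries, against 217, 215 and 239 in WT libraries. Lipa was lower without overlap and had a limma adjusted p of 0.275, while the acyl-CoA binding protein Dbi overlapped, with 33.6, 94.4 and 71.6 FPKM in Zeb1Prx1 and 35.4, 29.5 and 32.6 in WT. Of the 18 tested, 3 were lower and 0 higher in Zeb1Prx1 without overlap, beside 11.8% and 12.6% of all tested genes. Gpihbp1, the capillary anchor that Lpl needs in vivo, named after its values were seen, was at 0 in all 6 libraries.

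In fatty acid and triglyceride synthesis, 15 of 19 genes were tested, 9 lay below 0, and the median was -0.08. Fasn, the fatty acid synthase, had 26.9, 14.1 and 19.4 FPKM in Zeb1Prx1 libraries, against 32.3, 32.4 and 32.3 in WT libraries. Acly, which makes its acetyl-CoA, had 44.1, 36.8 and 44.9 FPKM in Zeb1Prx1, against 50.6, 59.1 and 59.9 in WT, and the phosphatidate phosphatase Lpin2 had 12.3, 7.96 and 7.36, against 14.9, 21.2 and 13.5. These 3 of the 15 were lower in Zeb1Prx1 without overlap, beside 11.8% of all tested genes, and had limma adjusted p of 0.278 to 0.302, above the threshold. Another 2 of the 15, named after their values were seen, were higher without overlap. The malic enzyme Me1 had 34.5, 34.4 and 28.6 FPKM in Zeb1Prx1 libraries, against 27.9, 25.1 and 17.0 in WT libraries, and the acyltransferase Gpat4 had 18.8, 21.2 and 17.7, against 17.2, 17.3 and 15.2. The list thus held genes separated in both directions.

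The droplet and lipolysis list had 9 of 15 members tested and a median of 0.10, and 4 members were higher without overlap, where 12.6% of all tested genes were. Bscl2 (seipin, which shapes nascent droplets) had 11.9, 16.1 and 17.3 FPKM in Zeb1Prx1 libraries, against 8.63, 9.57 and 9.91 in WT libraries (log2 difference 0.62, limma adjusted p = 0.273). Hilpda, an inhibitor of the triglyceride lipase Pnpla2, had 7.45, 12.5 and 14.2 FPKM in Zeb1Prx1, against 6.74, 7.08 and 4.31 in WT, and Fitm2, which helps droplets bud, 6.82, 5.03 and 6.67, against 4.57, 4.36 and 3.28. The other two, named after their values were seen, were also separated. G0s2, a second inhibitor of Pnpla2, had 4.43, 3.50 and 23.2 FPKM in Zeb1Prx1 libraries, against 0.565, 1.05 and 3.14 in WT libraries. Pnpla2 itself, the member lower without overlap, had 15.8, 16.8 and 15.1 FPKM in Zeb1Prx1, against 20.6, 22.9 and 17.9 in WT. None of the 5 passed the test.

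Adipokines and adipocyte receptors had 5 of 11 members tested and a median of -0.23. The adiponectin receptor Adipor2 had 16.2, 13.6 and 13.1 FPKM in Zeb1Prx1 libraries, against 20.8, 21.6 and 17.3 in WT libraries, without overlap (limma adjusted p = 0.296). Adipor1 had 52.9, 58.6 and 53.6 FPKM in Zeb1Prx1, against 48.4, 53.8 and 44.5 in WT, and the insulin receptor Insr had 3.81, 2.10 and 3.63, against 3.21, 4.36 and 3.89. Both overlapped between genotypes.

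**Figure D4:**
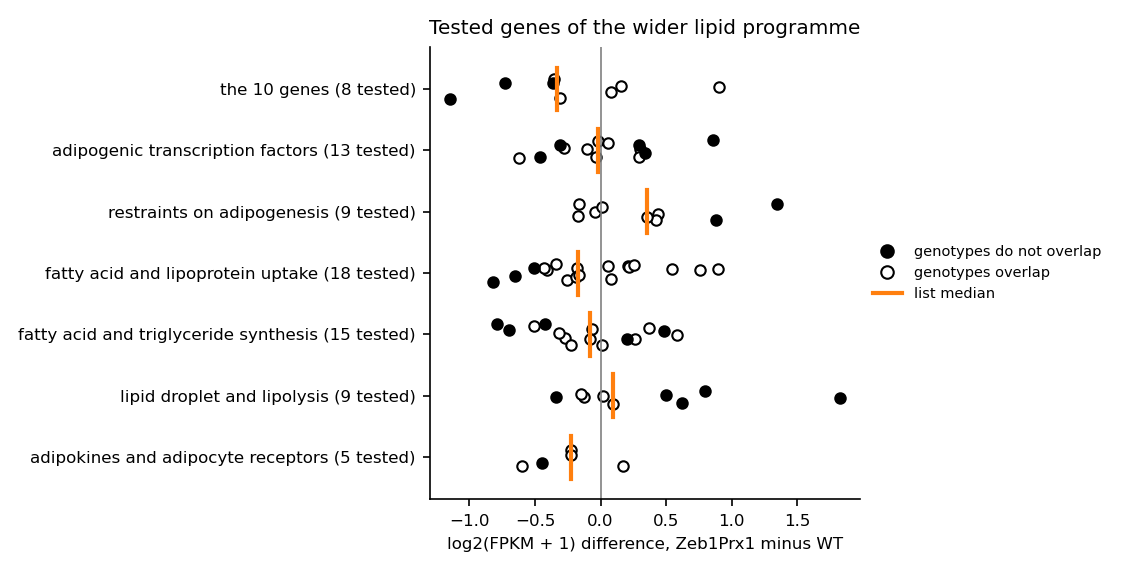
Log2(FPKM + 1) difference, Zeb1Prx1 minus WT (x axis), of each tested gene in the 10 genes and in 6 wider lists (rows), with filled points where the genotypes do not overlap and an orange line at each list's median. Medians run from -0.33 for the 10 genes to 0.36 for restraints on adipogenesis, and no gene passed the test.

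Markers of the cells present were measured beside these genes. The 8 adipocyte markers, which include Plin1 and Adipoq, summed to 0.224, 0.0687 and 0.706 FPKM in Zeb1Prx1 libraries and to 0.309, 0.165 and 0.361 FPKM in WT libraries. Leptin (Lep) was at 0 in all 6, and 0 of the 8 were tested. The markers with the highest means, Adrb3, Cfd and Slc2a4, stayed at or under 0.426 FPKM in each library. The defining genes of mature fat cells were thus at or near 0 in both genotypes.

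Macrophage markers were abundant, with 19 of 20 tested and summed levels of 11213, 23028 and 13321 FPKM in Zeb1Prx1 libraries and 13604, 16598 and 15528 FPKM in WT libraries. Their log2 difference was below 0 for 16 of the 19, with a median of -0.32, beside -0.33 for the 8 tested members. Lyz2, C1qb and Ctss, the highest of them, overlapped between genotypes, with means of 10853, 1042 and 901 FPKM in Zeb1Prx1 and 9542, 1184 and 781 in WT. Of the 19, 6 were lower and 0 higher in Zeb1Prx1 without overlap, beside 11.8% and 12.6% of all tested genes. Adgre1, the F4/80 antigen and 1 of these 6, named after its values were seen, had 164, 119 and 117 FPKM in Zeb1Prx1, against 215, 230 and 250 in WT. Lyz2 had a higher mean FPKM than Col1a1, the highest stromal marker, in both genotypes, although the sort was for Prx1-lineage cells. The macrophage marker Marco was at 0 in 2 libraries. The part of macrophage RNA in the lower values of Lpl, Cd36 and Cebpa was not tested.

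Stromal markers of the Prx1 lineage summed to 3119 to 6101 FPKM in Zeb1Prx1 and 2291.5 to 3589.5 FPKM in WT, with 12 of 14 tested, 9 above 0 and none at 0. They were led by Col1a1, Col1a2 and Col3a1, with means of 2332, 885 and 747 FPKM in Zeb1Prx1 and 1684, 572 and 379 in WT. The 3 below 0, named after their values were seen, were Pdgfrb, Thy1 and Prrx1. Their means were 23.8, 12.1 and 21.2 FPKM in Zeb1Prx1 and 34.4, 31.4 and 23.2 in WT. Of the 12, 2 were higher and 1, Pdgfrb, lower without overlap, beside 12.6% and 11.8% of all tested genes. The mean log2(FPKM + 1) of the stromal markers was lowest in WT replicate 1 and highest in Zeb1Prx1 replicate 3. WT replicate 1 also had the highest Cd36, Lpl and Plin2 and the lowest Cebpd and Fabp5, and Zeb1Prx1 replicate 3 the lowest Lpl, Plin2 and Pparg and the highest Cebpd and Fabp5. In Zeb1Prx1 replicate 2, where Cebpd was high and Cd36 at its lowest, the stromal markers lay below their mean over the 6 libraries. The part of stromal content in these values was not tested. Chondrocyte markers, led by Col2a1, Comp and Col11a1, had sums of 647, 199 and 2580 FPKM in Zeb1Prx1 and 34.1, 233 and 180 in WT. All 7 tested of 10 were above 0, and 5 were higher without overlap, beside 12.6% of all tested genes. Their mean log2(FPKM + 1) was also lowest in WT replicate 1 and highest in Zeb1Prx1 replicate 3. The 2 lists differed elsewhere. In WT replicates 2 and 3, chondrocyte markers deviated from their 6-library mean by -0.94 and -1.02. Stromal markers deviated there by 0.21 and 0.09.

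Osteoclast markers, led by Ctsk, Tnfrsf11a and Atp6v0d2, summed to 66.5, 82.6 and 74.0 FPKM in Zeb1Prx1 and to 53.0, 63.5 and 61.2 in WT, with 5 of 10 tested, 3 below 0 and a median log2 difference of -0.51. Ctsk carried the higher sum, with a mean of 57.1 FPKM in Zeb1Prx1 and 34.1 in WT, and was higher without overlap. Tnfrsf11a had 6.95 and 11.7 and Atp6v0d2 3.83 and 5.89, both lower in Zeb1Prx1 without overlap. Of all tested genes, 12.6% were higher and 11.8% lower without overlap. Calcr was at 0 in 5 libraries. Markers of endothelial cells, another site of Cd36, Fabp4 and Fabp5, summed to 1.99 to 2.55 FPKM in Zeb1Prx1 and 3.19 to 3.42 in WT, with Cldn5 at 0 in all 6. Vwf alone was tested, at 0.905 to 1.48 FPKM in Zeb1Prx1 and 1.76 to 2.64 in WT. Egfl7 and Kdr reached at most 0.790 and 0.647 FPKM. Their means were 0.569 and 0.265 FPKM in Zeb1Prx1 and 0.331 and 0.425 in WT, so the 2 genes went in opposite directions.

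**Figure D5:**
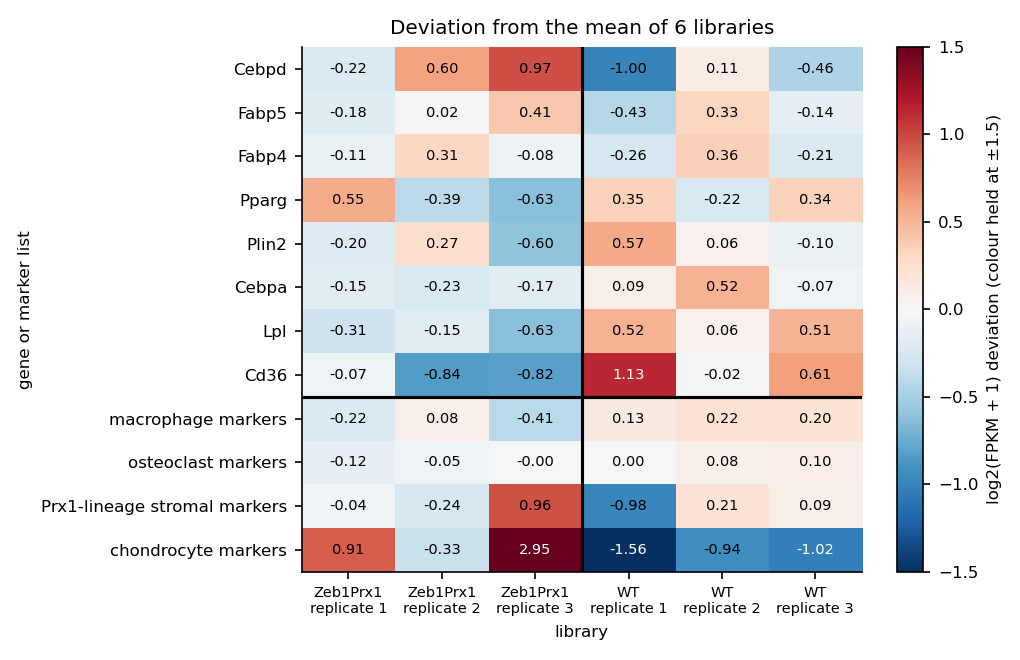
Deviation of log2(FPKM + 1) from the mean of the 6 libraries (colour and printed value) for the 8 tested genes and for the mean of 4 marker lists (rows), by library (columns). In Zeb1Prx1 replicate 3, Cebpd is at 0.97, stromal markers at 0.96 and Cd36 at -0.82, in Zeb1Prx1 replicate 2 at 0.60, -0.24 and -0.84, and in WT replicate 1 at -0.999, -0.98 and 1.13.

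The genes most like each member over the 6 libraries were named among 11122 other tested protein-coding genes, by Pearson's r of log2(FPKM + 1). With 6 points that share their libraries, high values are common, and r was at least 0.9 for 17 genes with Fabp4 and for 190 with Cebpd. Cd36 was most like Dnmt1 (r = 0.994), Wdr62 (0.990) and Pdik1l (0.988). Lpl was most like Pcdh19 (0.991), Celf2 (0.988) and Rab8b (0.988). Cebpa was most like Ccdc74a (0.995), Ccbe1 (0.993) and Clptm1 (0.980), and Pparg most like Amot (0.987), Rtl6 (0.985) and Mylk (0.984). These coefficients describe the 6 libraries and carry no test. Cebpd was most like BC029722 (0.987), Ccl7 (0.987) and Pdk3 (0.986), and Fabp5 most like Cys1 (0.990), Pygl (0.989) and Medag (0.988). Plin2 was most like Nfe2l2 (0.991), Galm (0.988) and Ugcg (0.983), and Fabp4 most like Aifm2 (0.978), Zfp959 (0.977) and Pik3c3 (0.969).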

How the data were processed

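RNA was sequenced from 6 libraries, 3 per genotype. The values used are FPKM that the authors deposited in 1 table, which per the file headers also gives each gene's name, position and length. Per the submitters' processing notes the genome build was mm10, with aligner, counter and strandedness not given in the sources used here. FPKM multiplied by the deposited gene length gave a whole number of steps, the step being fixed within a library, for 100% of its values above 0 (relative tolerance 1e-06), from which fragments were recovered. Their totals were 14724357 to 18354894 per library.

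A gene was tested when 3 or more of the 6 libraries reached 1 FPKM (12534 genes), 8 of the 10 members among them. Zeb1Prx1 was compared with WT by limma 3.58.1 in R 4.3.3, fitted to log2(FPKM + 1) with its trend option, no block and Benjamini-Hochberg adjustment over all tested genes, at a threshold of 0.05. This scale understates the change of low genes. The fit was tested on simulated data with a spread setting common to all genes, which need not match the spread in these libraries. The members, the 6 pathway and 6 marker lists and the alternatives were chosen with earlier results of these data known. Where a listed symbol had several rows (Ddit3), the row with the highest mean was used.

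Genes named were all 10 members, Zeb1, up to 3 tested genes of each pathway list with the smallest unadjusted p, up to 3 of each marker list with the highest mean, and for each tested member the 3 other protein-coding genes with the highest Pearson's r. Others are said to be named after their values were seen, and 1 gene that this rule names is not reported here. Promoters were matched by symbol to RefSeq sequences (GRCm38.p6), and transcript lengths came from GENCODE M21. Alternatives were a gene filter of mean FPKM 5 or more, no gene filter, pseudocounts of 0.1 and 0.5, an equal FPKM sum, median of ratios, quantile normalization, the replicate block, no trend, library weights, voom on recovered fragments, and leaving out each library.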

Additional observations from a re-analysis of the deposited data

How the results depend on the processing

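Lpl, Cd36, Cebpa, Cebpd, Plin2 and Pparg kept the direction of their log2 difference under each alternative that tested them (17 each, 16 for Pparg). Ranges were -0.90 to -0.60 for Lpl, -1.45 to -0.87 for Cd36 and 0.63 to 1.24 for Cebpd. Library weights called 447 of all genes and 1 member, Lpl (adjusted p = 0.0498), where all other alternatives with 6 libraries called 0 of both. The weights were 0.655, 0.226 and 2.82 for Zeb1Prx1 replicates 1, 2 and 3, so the weighted Zeb1Prx1 mean rested mainly on replicate 3. In WT they were 0.918 to 1.745. Leaving out 1 library called 0 to 2 of all genes (2 without Zeb1Prx1 replicate 2, 1 without Zeb1Prx1 replicate 3) and 0 members. It gave 3 to 5 members without overlap between genotypes, with 5 without Zeb1Prx1 replicate 1 or WT replicate 2, where 43.1% and 32.2% of all tested genes did not overlap, beside 24.4% with 6 libraries. It gave a member median of -0.36 to -0.11, the value nearest 0 being that without Zeb1Prx1 replicate 3. Scaling to an equal FPKM sum moved the median of all genes to -0.12 and gave Fabp4 -0.044 and Fabp5 -0.0090, which lie 0.08 and 0.11 above that shift, while Lpl, Cd36 and Cebpd were -0.77, -1.17 and 0.86 relative to it. Fabp4 was -0.042 with library weights and -0.054 to 0.28 when 1 library was left out. Fabp5 was -0.0070 with quantile normalization and -0.015 to 0.36 when 1 library was left out. The causes were not tested. Genes at an unadjusted p under 0.05 numbered 1897, 3866 with library weights, and 1133 to 2887 when 1 library was left out. Same-numbered libraries of the genotypes did not deviate together (correlations of 0.029, -0.41 and 0.080), and differently numbered ones gave -0.48 to 0.46. With 3 libraries per genotype these values cannot decide whether the numbers pair them. The replicate block called 0 of 12534 genes, with 1347 at an unadjusted p under 0.05, and gave the same member median of -0.33. Depth limits Plin1 and Adipoq, which had 0 to 3 fragments per library.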
